A study of Mus musculus with 2 samples.

Results

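The genes of the mouse mitochondrial genome and 5 nuclear pseudogenes that carry copies of its protein genes were followed in total RNA of the heart. The members are 42 of the 55450 genes in the tables. They comprise every gene whose symbol starts with mt-, that is 13 protein genes, 2 ribosomal RNAs (rRNAs) and 22 transfer RNAs (tRNAs), and the copies Gm28661, Gm29216, Gm10925, Gm28437 and Gm28439. The copies were chosen by their measured levels and by how differently the 2 deposited quantifications treat them, so those differences are given as descriptions and no test is drawn from them.

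The hearts came from male B6CASTF1/J mice, F1 animals of a B6 and CAST cross, aged 36 days, with no treatment or other genotype and hence 1 group. Each of the 2 libraries started from 300 ng of RNA and was stranded and rRNA-reduced, with ERCC spike-ins, which are synthetic RNAs, per the labels. The descriptions number the males separately while a single donor entry is given for both biosamples, and the labels do not say if this means 1 animal. Each library was quantified by the authors once from alignments to the transcriptome, called the first quantification, and once directly from the reads, called the second.

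The mitochondrial genome is a small circle that is transcribed from both strands into long precursors, which are cut into mature rRNAs, messenger RNAs (mRNAs) and tRNAs. The tRNAs lie between many of the other genes, and their excision frees the neighbouring RNAs. The proteins are core subunits of the respiratory chain and of ATP synthase, and heart muscle, which depends on oxidative phosphorylation, is rich in mitochondria. Fragments of the mitochondrial genome have also been inserted into nuclear chromosomes, and a recent insertion can match the mitochondrial sequence so closely that short reads fit both.

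The 5 copies lie in a single block on chromosome 1. It runs from 24611535 to 24616197 on mm10, on the minus strand, and holds 7 annotated unprocessed pseudogenes over 4663 nt. In the same order and with the same spacing, apart from a shift of 1 nt between the Nd3 and Nd4l copies, they match bases 6390 to 11042 of the mitochondrial chromosome. That stretch covers the end of mt-Co1, all of mt-Co2, mt-Atp8, mt-Atp6, mt-Co3, mt-Nd3 and mt-Nd4l, and the start of mt-Nd4. The other 2 pseudogenes of the block, Gm28438 (345 nt, mt-Nd3) and Gm10222 (294 nt, mt-Nd4l), are not members, and they are named after their values were seen. Gm29216 lies at 24615706 to 24616197, Gm28661 at 24614885 to 24615565, Gm10925 at 24613974 to 24614651, Gm28437 at 24613189 to 24613971 and Gm28439 at 24611535 to 24612410. No annotated pseudogene of the block was matched to mt-Atp8.

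**Figure D1:**
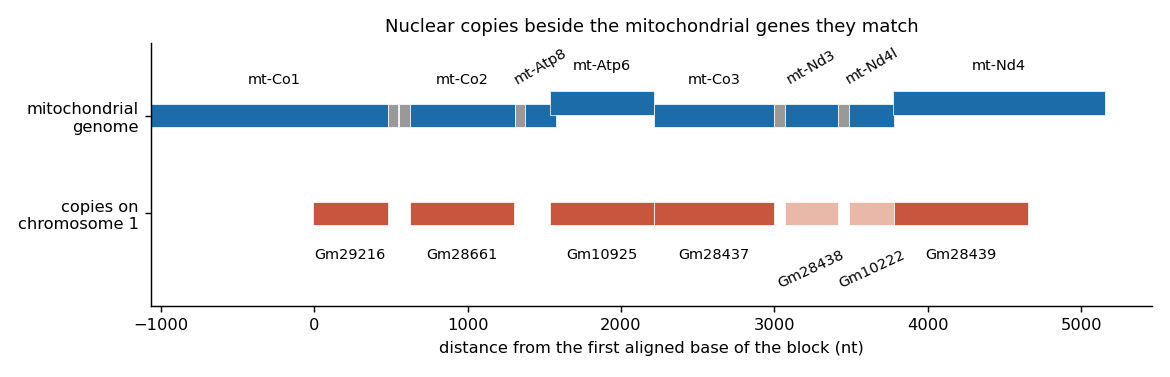
Map of the block, with mitochondrial genes in blue and tRNA genes in grey above, and the nuclear copies below, members in dark red and the other 2 pseudogenes in light red. The x axis is the distance in nt from the first aligned base, and mt-Atp6 and mt-Nd4 are raised to show their overlaps with mt-Atp8 and mt-Nd4l; the 7 copies keep the order of the genes.

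The ends of 3 gene and copy pairs are printed because they hold the only bases by which these transcripts differ. In the GENCODE M21 transcripts Gm28661 matched mt-Co2 at 681 of its 681 bases, Gm10925 matched mt-Atp6 at 678 of 678, and Gm28437 matched mt-Co3 at 783 of 783. Each gene runs on past its copy by the bases in capitals. The sequences are GENCODE M21 transcripts on mm10, 5′ to 3′, the printed genes from the plus strand of the mitochondrial chromosome and the copies from the minus strand of chromosome 1.
mt-Co2: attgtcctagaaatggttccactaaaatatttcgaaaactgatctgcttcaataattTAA
Gm28661: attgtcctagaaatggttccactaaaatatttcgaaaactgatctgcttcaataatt
mt-Atp6: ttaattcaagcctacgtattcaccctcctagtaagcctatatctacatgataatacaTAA
Gm10925: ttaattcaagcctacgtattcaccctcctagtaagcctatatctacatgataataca
mt-Co3: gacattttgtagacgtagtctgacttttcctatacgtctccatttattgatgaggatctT
Gm28437: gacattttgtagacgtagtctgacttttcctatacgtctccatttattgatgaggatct

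These few end bases set how much of each transcript is distinct. Of the 585 stretches of 100 nt in mt-Co2, 3 were not in Gm28661, and the same number was found for mt-Atp6 (3 of 582) and a lower one for mt-Co3 (1 of 685). In the reverse direction no stretch of Gm28661, Gm10925 or Gm28437 was absent from its gene, so nothing of this length in the transcript is particular to the copy.

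The other members of the block differ more. Gm28439 is identical to the first 876 bases of mt-Nd4, but mt-Nd4 is 1378 nt long and 502 of its 1279 stretches of 100 nt are not in the copy. Gm29216 covers only the end of mt-Co1, and 1066 of the 1446 stretches of mt-Co1 are not in it. It is also the only member copy with bases of its own. Its first 60 bases are shown beside bases 1054 to 1113 of mt-Co1, with the 6 differing bases in capitals, the start of Gm28438 likewise beside mt-Nd3.
mt-Co1: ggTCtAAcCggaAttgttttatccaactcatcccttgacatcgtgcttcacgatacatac
Gm29216: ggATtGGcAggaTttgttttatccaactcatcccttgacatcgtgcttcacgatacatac
mt-Nd3: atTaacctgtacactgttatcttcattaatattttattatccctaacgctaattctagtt
Gm28438: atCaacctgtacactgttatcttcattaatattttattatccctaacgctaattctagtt

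Counted from 1 at the 5′ end of mt-Co1, the differences are T1056A, C1057T, A1059G, A1060G, C1062A and A1066T, with the gene's base first and the base of Gm29216 last. They leave 13 of the 393 stretches of Gm29216 absent from mt-Co1. In Gm28438 the difference from mt-Nd3 is T3C, counted from 1 at the 5′ end of mt-Nd3.

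Mitochondrial genome genes held 32.9% of expected counts in replicate 1 (exact Clopper-Pearson 95% interval 32.91 to 32.94%) and 32.0% in replicate 2 (31.95 to 31.98%), or 32.4% ± 0.680 (SD, n = 2 here and below). The intervals are narrow because the libraries held 41846508 and 42481559 expected counts, and they cover counting error only. Replicate 1 was the higher. The rRNAs made up the larger part, with 22.6% and 21.01% of expected counts, and the protein genes held 10.4% and 11.0%. The rRNA share was higher in replicate 1 and the protein share in replicate 2. The 5 copies added 2.89% and 2.99%. In the second quantification the mitochondrial genome genes stood at 33.1% and 32.0% of estimated counts, close to the first, while the copies stood at 1.95% and 2.04%.

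All 42 members together took 42.03% and 42.00% of TPM, a level per length scaled to the library, in the first quantification, and 48.25% and 48.31% in the second. Spike-in RNAs are part of that total in the first, at 0.487% and 0.470% of expected counts. Fewer mitochondria, fewer cells of a type and less mitochondrial RNA per cell cannot be told apart in RNA of a whole tissue.

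The 2 rRNAs were the most abundant members. mt-Rnr1 (chromosome M, 70 to 1024) is the RNA of the small subunit of the mitochondrial ribosome, and mt-Rnr2 (1094 to 2675) that of the large subunit. On the TPM scale mt-Rnr1 stood at 69337 and 68133 in replicates 1 and 2, and mt-Rnr2 at 149217 and 138792. The second quantification gave 76229.6 and 74439 TPM for mt-Rnr1 and 186722 and 172920.0 TPM for mt-Rnr2. Replicate 1 was the higher for both genes in both quantifications. Although the genes are neighbours on the same strand with a single tRNA gene between them, mt-Rnr2 stood 2.15- and 2.04-fold above mt-Rnr1 per length in the first quantification and 2.45- and 2.32-fold above it in the second. The libraries were rRNA-reduced, and the labels do not say if the reduction acted on mitochondrial rRNA, so these are levels in the libraries and not in the tissue.

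Complex IV, cytochrome c oxidase, passes electrons to oxygen, and the mitochondrial genome encodes its 3 core subunits. mt-Co1 (chromosome M, 5328 to 6872), the catalytic subunit, stood at 34642 and 37120.4 TPM in the first quantification and 43469 and 46430.2 in the second. It was the highest of the 13 protein genes in both. mt-Co2 (7013 to 7696), which receives electrons from cytochrome c, stood at 592 and 620 TPM in the first and 3651 and 3742 in the second, a 6.10-fold difference of the means. Taken alone it was the lowest of the 13 protein genes in the first quantification and held rank 10 in the second. The third core subunit, mt-Co3 (8607 to 9390), had 17194 and 19829 TPM in the first and 12314 and 13839 in the second, where it was lower by 0.50 on the log2 scale. The 3 genes thus differ widely when each is read alone, although the subunits belong to the same enzyme.

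Complex III has a single mitochondrially encoded subunit, cytochrome b. mt-Cytb (14145 to 15288) has no member copy, and its levels were 14642 and 15446 TPM in the first quantification and 17948 and 18885 in the second. Replicate 2 was slightly the higher in both.

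Complex I, which takes electrons from NADH, has 7 mitochondrially encoded subunits. In the first quantification mt-Nd1 (2751 to 3707) stood at 9909 and 11604 TPM, mt-Nd2 (3914 to 4951) at 5474 and 6381, and mt-Nd5 (11742 to 13565) at 6074 and 6821. All of these were higher in replicate 2. mt-Nd4 (10167 to 11544) stood at 10271 and 9118 TPM, mt-Nd4l at 9365 and 8000.2, and mt-Nd3 (9459 to 9806) at 6907 and 5813, all higher in replicate 1. mt-Nd6 was the lowest of the 7 with 1661 and 1817 TPM. It is the only protein gene on the minus strand (13552 to 14070), and it overlaps mt-Nd5 by 14 nt. No source used here says if the counting used strand, so reads of mt-Nd6 and of RNA from the opposite strand cannot be told apart.

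The second quantification placed 6 of these 7 genes somewhat higher and mt-Nd4l far lower. It gave mt-Nd1 11297 and 13316 TPM, mt-Nd4 11715 and 10496, and mt-Nd5 6687 and 7444. It gave mt-Nd2 7180.1 and 8208, mt-Nd3 8057 and 9104, and mt-Nd6 2215 and 2347. mt-Nd4l (9877 to 10173), an integral membrane subunit of 297 nt in the transcript, stood there at 223 and 212 TPM, against 9365 and 8000.2 in the first, or 39.9-fold lower. In counts it held 62418 and 53535 in the first and 489 and 445 in the second. mt-Nd4l shares its last 7 nt with mt-Nd4, and its copy Gm10222 was listed at 0 in both quantifications, so the counts that differ were not on that copy.

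ATP synthase, complex V, uses the proton gradient to make ATP, and mt-Atp6 and mt-Atp8 encode subunits of its membrane part. mt-Atp6 (7927 to 8607) stood at 15817 and 17647 TPM in the first quantification and at 28455 and 30785 in the second. mt-Atp8 (7766 to 7969) stood at 4327 and 4471 TPM in the first and was listed at 0 in both libraries of the second. The 15295 and 15865 expected counts of mt-Atp8 therefore have no counterpart there, and no fold is given. Both proteins are read from the same mRNA, and the genes share 43 nt. The shared bases are in capitals at the end of mt-Atp8 (printed from base 142 to 204) and the start of mt-Atp6, to show where the genes overlap.
mt-Atp8: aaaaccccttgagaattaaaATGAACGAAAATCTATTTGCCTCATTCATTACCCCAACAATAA
mt-Atp6: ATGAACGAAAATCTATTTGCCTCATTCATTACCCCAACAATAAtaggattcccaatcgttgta

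Short genes are those on which the effective length, the number of positions where a fragment can start, differs most, in proportion, between the quantifications. For mt-Atp8, 204 nt long, it was 105 nt in the first and 42.6 nt in replicate 1 of the second. The values were 198 and 63.8 nt for mt-Nd4l, and 249 and 82.1 nt for mt-Nd3. For the long mt-Nd5 they were 1725 and 1499 nt. The count of mt-Nd3 in the second was 39.2% and 50.7% of that in the first, while its TPM was higher in the second. The part of length in these differences was not tested.

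**Figure D2:**
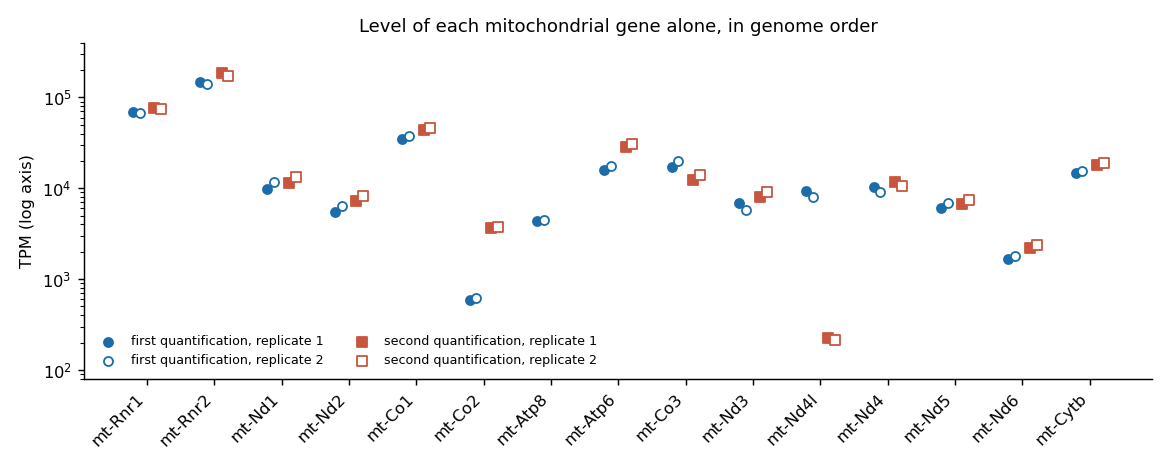
TPM on a log axis of the 2 rRNAs and 13 protein genes, each gene alone and in genome order, with circles for the first and squares for the second quantification, filled for replicate 1 and open for replicate 2. The replicates lie close together, whereas mt-Co2 and mt-Nd4l are far apart between quantifications; mt-Atp8, at 0 in the second, has no square.

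The 22 tRNA genes carried no counts in either quantification. They are 59 to 75 nt long. On the plus strand lie mt-Tf, mt-Tv, mt-Tl1, mt-Ti, mt-Tm, mt-Tw, mt-Td, mt-Tk, mt-Tg, mt-Tr, mt-Th, mt-Ts2, mt-Tl2 and mt-Tt, and on the minus strand the other 8, mt-Tq, mt-Ta, mt-Tn, mt-Tc, mt-Ty, mt-Ts1, mt-Te and mt-Tp. In the first quantification all have an effective length of 0, which leaves no position for a fragment, so the 0 is no measurement of tRNA. The second lists effective lengths of 20.7 to 23.8 nt in replicate 1 and no estimated count. With 0 counted, up to 3 counts remain possible, which is 0.0716 and 0.0712 CPM (counts relative to the total) in the libraries of the second. This figure covers counting only. The libraries are the same as in the first quantification, so it is no upper limit for tRNA in the tissue. The tRNAs that flank the rRNA genes are printed as examples of these short genes: mt-Tf (phenylalanine), mt-Tv (valine) and mt-Tl1 (a leucine tRNA).
mt-Tf: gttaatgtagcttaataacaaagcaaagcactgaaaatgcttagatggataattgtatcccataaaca
mt-Tv: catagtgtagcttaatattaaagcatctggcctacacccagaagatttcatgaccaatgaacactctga
mt-Tl1: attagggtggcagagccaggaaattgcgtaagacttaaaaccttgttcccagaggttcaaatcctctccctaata

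The levels assigned to the nuclear copies ran from 0 to values within the range of the mitochondrial protein genes. Gm28661, Gm10925, Gm28437 and Gm28439 hold no stretch of 100 nt that is absent from the matching gene. For Gm29216 it is 13 of 393 stretches. The values below are therefore how each quantification divided shared sequence, and they do not show that the copies are transcribed. In the first quantification Gm28661 stood at 28235 and 30598 TPM, Gm29216 at 14513 and 16497, and Gm10925 at 12087 and 12034. Gm28437 stood at 9992 and 9307 TPM, and Gm28439 was listed at 0 in both libraries. The second put Gm28661 at 35316 and 38631 TPM and Gm28437 at 20985 and 21382. There Gm29216 stood at 4378 and 5948 TPM, Gm10925 at 0.000808 and 0.000707, and Gm28439 at 1579 and 1036. The order of the copies thus changed with the quantification, and Gm10925 and Gm28439 were each at or near 0 TPM in 1 quantification and well above it in the other.

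Between the quantifications, 5 of the 20 members at 5 TPM or more in either lay 4-fold or more apart. Lower in the second were mt-Atp8, mt-Nd4l and Gm10925, 3 of 20, where 3.19% of all 8589 genes tested were called in that direction. Higher in the second were mt-Co2 and Gm28439, 2 of 20, against 1.08% of all genes. The copies entered the list partly for this contrast, so nothing is read from the counts. The median log2 ratio of second over first, on log2(TPM + 1), was 0.31 over the 20 members and 0.21 over all genes tested, with 15 of the members and 7324 of the 8589 genes higher in the second.

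Adding gene and copy removed most of these differences for some pairs and not for others. For mt-Co1 and Gm29216 the sum was 1878201 and 2033176 expected counts in the first quantification and 1847760.0 and 1981236 estimated counts in the second, 98.4% and 97.4% of the first. The copy held 10.2% and 10.8% of that sum in the first and 1.42% and 1.77% in the second. So the sum hardly moved while the split did. On the TPM scale the log2 ratio of second over first was -0.04 for the sum and 0.33 for mt-Co1 alone, and with both counts taken over the length of mt-Co1 it was 0.19, so the sign depended on how the pair was added.

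For mt-Co2 and Gm28661 the sum was 564815 and 614107 counts in the first and 476826 and 516560 in the second, 84.4% and 84.1% of the first. The copy held 97.9% and 98.0% of the sum in the first, and 90.6% and 91.1% in the second. Nearly all counts of this pair were therefore assigned to the pseudogene in every library, and the low level of mt-Co2 alone goes with that split. On the TPM scale the sum stood 1.35-fold higher in the second, against 6.10-fold for mt-Co2 alone.

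The sum of mt-Atp6 and Gm10925 was 545471 and 582601 counts in the first and 347923 and 375013 in the second. That is 63.8% and 64.4% of the first, the lowest share of the 5 pairs. Here the first quantification put 43.2% and 40.4% on the copy and the second practically nothing. Per length, the summed TPM differed by 0.04 on the log2 scale, mt-Atp6 alone by 0.82. In CPM, which takes no account of length, the sum was lower in the second by a log2 ratio of -0.64. In counts mt-Atp6 alone stood in the second at 1.12- and 1.08-fold its value in the first. Adding the copy thus narrowed the difference per length and widened it in counts.

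For mt-Co3 and Gm28437 the sum was 626519 and 674196 counts in the first and 524219 and 553148 in the second, 83.7% and 82.0% of the first. The copy held 36.7% and 31.9% in the first and 63.0% and 60.7% in the second. This was the pair in which the larger part moved from the gene to the copy. mt-Co3 alone was lower in the second (-0.50), whereas the summed TPM was higher (0.28) and the sum in CPM was again lower (-0.27).

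The pair of mt-Nd4 and Gm28439 had sums of 442217 and 394123 counts in the first and 453599 and 399182 in the second, 102.6% and 101.3% of the first. The copy held 0 in the first and 6.59% and 4.90% in the second. On the TPM scale adding the copy widened the log2 ratio, from 0.20 for mt-Nd4 alone to 0.36 for the sum. Outside the members, Gm28438 and Gm10222 held 0 in both quantifications, so adding them changed neither mt-Nd3 nor mt-Nd4l. Over all protein genes and copies, the second quantification held 89.5% and 89.0% of the counts of the first, and the copies' part was 21.8% and 21.5% of that sum in the first and 16.5% and 16.3% in the second.

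The first quantification also gives each gene a posterior mean count with a posterior SD, its own measure of how well the reads fix the count. For mt-Co2 the expected count was 11663 in replicate 1 with a posterior mean of 67077 (posterior SD 9528). In replicate 2 it was 12250.5 with a posterior mean of 67374 (posterior SD 8924). The posterior mean was thus 5.75- and 5.50-fold the expected count of the same gene in the same table. With it the copy held 88.1% and 89.0% of the pair, below the 90.6% and 91.1% of the second quantification. In both libraries the gap between expected count and posterior mean of mt-Co2 was larger than the posterior SD. The SD therefore does not cover the whole uncertainty of the count.

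As a fold of the expected count, the posterior mean differed less for mt-Co3 and mt-Atp6. For mt-Co3 the posterior means were 329388 and 356249, against expected counts of 396470.0 and 459071. The part on the copy was 47.4% and 47.2%, in place of 36.7% and 31.9% by expected counts. That is a larger shift in percent of the pair than for mt-Co2, where expected counts had put 97.9% and 98.0% on the copy. For mt-Atp6 they were 294749 and 330919, against 309884 and 347110.0, with 46.0% and 43.2% on the copy. Posterior SDs were 9564 and 9401 counts for mt-Co3, 7817 and 6986 for mt-Atp6, 672 and 665 for mt-Co1, and 7.44 and 8.06 for mt-Nd4. mt-Rnr1, mt-Rnr2, mt-Nd1, mt-Atp8, mt-Nd5, mt-Nd6 and mt-Cytb had a posterior SD of 0. The posterior sums of the pairs were the same as the expected sums to within 1 count, so only the split inside a pair was uncertain by this measure. Among the member pairs, the posterior SDs were larger for the 3 pairs with 1 to 3 distinct stretches than for mt-Co1 and mt-Nd4, with 1066 and 502. Outside the members this did not hold. mt-Nd4l has 3 stretches that are not in Gm10222, and its posterior SDs were 247 and 261 counts, below those of mt-Co1. For mt-Nd3, with 6 stretches not in Gm28438, they were 153 and 27.5.

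**Figure D3:**
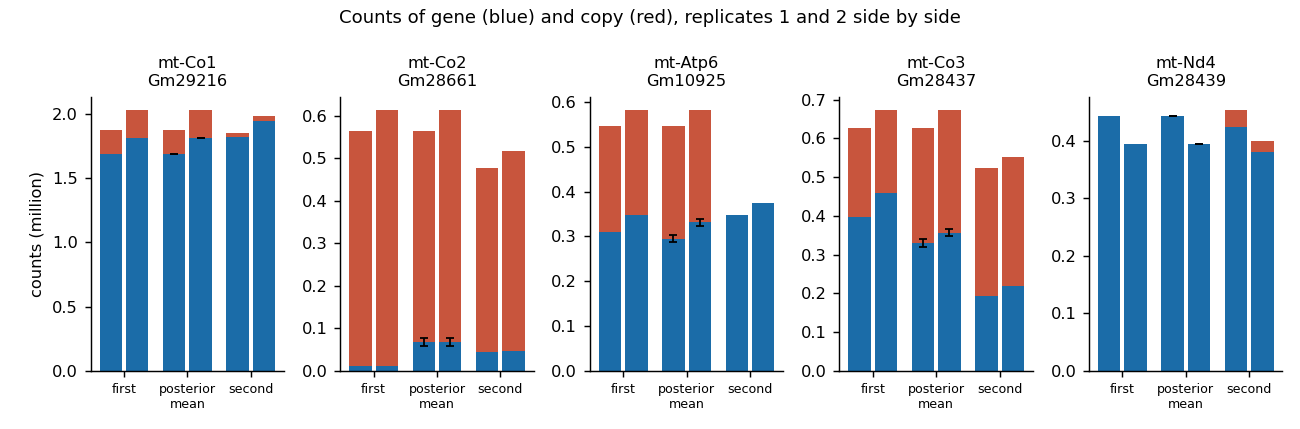
Counts on the y axis, with gene in blue and copy in red, for each of the 5 pairs, as bars for replicates 1 and 2 in the first quantification, by posterior mean (black bars: posterior SD) and in the second quantification, each panel with its own y axis. The division into gene and copy changes between the first and second quantification in every pair, and mt-Atp6 has no visible copy in the second. By posterior mean the pairs of mt-Co1 and mt-Nd4 are divided nearly as in the first quantification.

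With counts of gene and copy combined and divided by the effective length of the mitochondrial gene, the order of the 13 protein genes changed mainly for mt-Co2. This way of adding was chosen after the data were seen. In the first quantification the combined levels were 40095 ± 2134 TPM for mt-Co1, 29872 ± 1682 for mt-Co2, 28731 ± 1256 for mt-Atp6 and 28146 ± 1379.5 for mt-Co3. mt-Co2 thus moved from rank 13 to rank 2, and the ranges of mt-Co2 and mt-Atp6 over the 2 libraries overlapped, as did those of mt-Atp6 and mt-Co3. mt-Co1 stayed above them without overlap.

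Below this group came mt-Cytb at 15044 ± 569 TPM and then the complex I genes. mt-Nd1 stood at 10756 ± 1199 TPM, mt-Nd4 at 9695 ± 816 and mt-Nd4l at 8683 ± 965, and neighbours among these 3 overlapped. mt-Nd5 at 6447 ± 528, mt-Nd3 at 6360.1 ± 773 and mt-Nd2 at 5927 ± 641 overlapped as well. mt-Atp8 at 4399 ± 101 and mt-Nd6 at 1739 ± 110.5 closed the order, each apart from its neighbour. In this order all complex IV genes lay above mt-Cytb and all complex I genes below it.

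In the second quantification the complex IV genes and mt-Atp6 again stood above mt-Cytb, with mt-Co3 now ahead of mt-Atp6, and the order below mt-Cytb differed too. mt-Co1 stood at 45681 ± 2244 TPM, mt-Co2 at 40359.8 ± 2387, mt-Co3 at 34213 ± 1358 and mt-Atp6 at 29620 ± 1647, and no neighbours among these overlapped. mt-Cytb followed at 18417 ± 663, mt-Nd1 at 12306 ± 1428 and mt-Nd4 at 11789 ± 1064. mt-Nd3 at 8581 ± 740.4, mt-Nd2 at 7694 ± 727 and mt-Nd5 at 7065 ± 535 came next, with overlaps between mt-Nd1 and mt-Nd4, mt-Nd3 and mt-Nd2, and mt-Nd2 and mt-Nd5. mt-Nd6 at 2281 ± 93.5, mt-Nd4l at 217 ± 8.15 and mt-Atp8 at 0 were last.

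**Figure D4:**
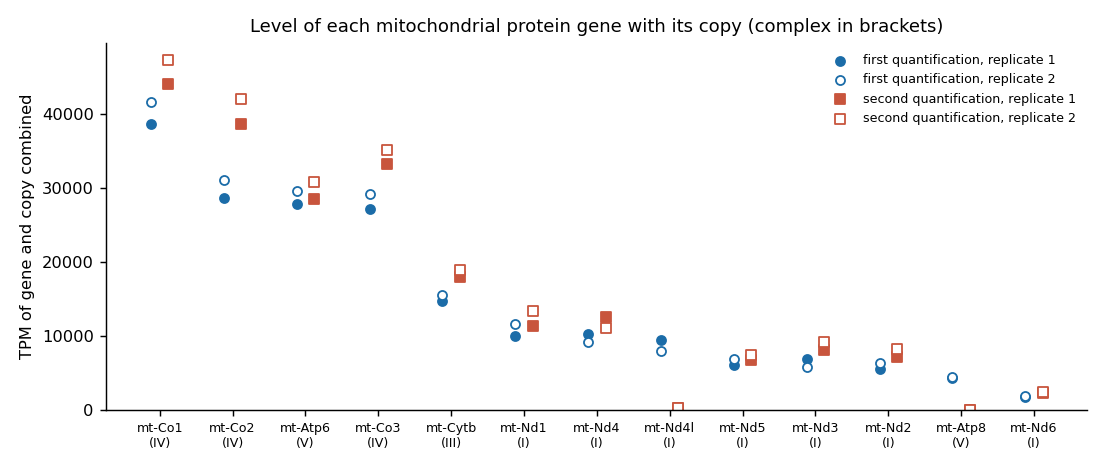
TPM of each protein gene with its member copy added, on a linear axis from 0, with the complex in brackets, circles for the first and squares for the second quantification, filled for replicate 1 and open for replicate 2. The 3 complex IV genes and mt-Atp6 stand above mt-Cytb and the complex I genes in both; mt-Nd4l and mt-Atp8 lie near or at 0 in the second.

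Other nuclear copies were scarce. By sequence, 16 annotated genes outside the mitochondrial chromosome matched a mitochondrial gene at 90% identity or more over 80% or more of their length, and 9 of them lie outside the block. The highest, Gm13340 (chromosome 2, 22588103 to 22589647, 97.6% identical to mt-Co1), had 352 and 368 expected counts and 1406 and 1409 estimated counts. Gm13341 (chromosome 2, 22587291 to 22587962, 95.9% identical to mt-Co2) had 228 and 271 expected counts and 100.2 and 97.7 estimated counts. These counts are far below those of Gm28661, Gm29216, Gm10925 and Gm28437 in the first quantification. Gm11410 (mt-Cytb, chromosome 4) held 0 expected and 75.0 and 73.0 estimated counts. Gm11512 (mt-Co1, chromosome 11) held 1 expected count in each library and 51.8 and 51.4 estimated counts. Gm4076 (mt-Nd5, chromosome 13) held 2 and 1 expected counts and 37.9 and 47.6 estimated counts. Gm13339 (mt-Nd2, chromosome 2) held 0 and 2.14 expected and 11.7 and 21.3 estimated counts, and Gm11407 (mt-Nd5, chromosome 4) 0 and 2 expected and 16.3 and 10.7 estimated counts.

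Between the 2 libraries, members moved little. After scaling by TMM, a factor computed over most genes, 0 of the 19 members whose expected counts averaged at least 50 were 2-fold or more apart, where 1.28% of 12536 genes were. No p-value is given because an exact sign permutation over 2 samples cannot go below p = 0.5. The log2 ratios of replicate 2 over replicate 1 ran from -0.29 to 0.19 with a median of 0.04, beside a median of 0.0004 over all genes. The counting interval lay above 0 for 10 members, below 0 for 7 and held 0 for mt-Co2 and mt-Atp8. Over all 12536 genes it lay above 0 for 15.5% and below 0 for 16.8%, most of them with wider intervals on fewer counts. Differences beyond counting error are therefore common between these libraries, and nothing particular to the members is read from them. The interval also leaves out how well the reads fix the split between gene and copy. For example, before scaling the expected count of Gm28437 was lower in replicate 2 (215125 against 230049). Its posterior mean count was higher there (317947 against 297131), so an interval clear of 0 does not settle the direction for such a member.

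Genes of complexes III, IV and V were on the higher side in replicate 2 or near 0. The log2 ratios were 0.06 for mt-Co1, 0.17 for mt-Co3, 0.12 for mt-Atp6 and 0.04 for mt-Cytb. mt-Co2 had 0.03 (95% counting interval -0.01 to 0.06) and mt-Atp8 0.01 (-0.02 to 0.04). Summed with their copies, the pairs of mt-Co1, mt-Co2, mt-Atp6 and mt-Co3 stood at 0.07, 0.08, 0.05 and 0.06, a narrower range than for the genes alone. Sums of gene and copy were therefore alike across these 4 neighbouring genes, where the copies alone ran from -0.14 for Gm28437 and -0.05 for Gm10925 to 0.08 for Gm28661 and 0.15 for Gm29216. The second quantification gave 0.09, 0.11, 0.10 and 0.07 for the same sums.

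Complex I genes went both ways. mt-Nd1 (0.19), mt-Nd2 (0.18), mt-Nd5 (0.13) and mt-Nd6 (0.09) were higher in replicate 2. mt-Nd3 (-0.29), mt-Nd4l (-0.27) and mt-Nd4 (-0.21), neighbours on the genome and singled out after their values were seen, were the only protein genes lower in replicate 2 beyond counting error. In the second quantification mt-Nd4 was again lower (-0.17), mt-Nd4l had an interval that held 0 (-0.15, -0.33 to 0.04), and mt-Nd3 was higher in replicate 2 (0.12, 0.09 to 0.14). The direction for mt-Nd3 thus depended on the quantification. Gm28437 also changed sign, from -0.14 to 0.01. The second quantification was scaled to its own total, with a median over all genes of 0.027 against 0.0004 in the first. Gm28437 thus lay below that median in both.

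Both rRNAs were lower in replicate 2, mt-Rnr1 by a log2 ratio of -0.06 and mt-Rnr2 by -0.14. Scaled to the spike-ins, which moved the median over all genes from 0.0004 to 0.074, mt-Rnr1 stood at 0.0093 and Gm10925 at 0.028, so the direction of these 2 flipped, while the other measured members kept theirs under each scaling. Gm29216 and Gm28439 had the widest replicate ratios in the second quantification, 0.41 and -0.62, on counts of 26180.0 and 35096 and of 29875 and 19568.

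**Figure D5:**
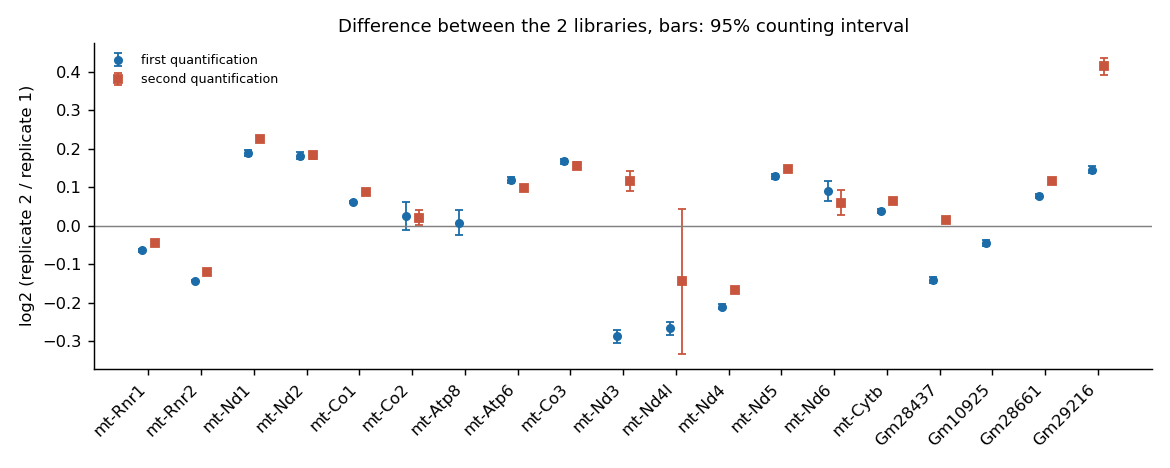
Log2 ratio of replicate 2 over replicate 1 for the 19 measured members, with 95% counting intervals, circles for the first and squares for the second quantification (mt-Atp8 and Gm10925 have no square). mt-Nd3, mt-Nd4l and mt-Nd4 are the protein genes below 0 in the first, and mt-Nd3 changes side in the second.

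Nuclear genes that act on mitochondrial DNA and RNA were read beside the members as 5 lists, of which 68 of 69 genes were found. None of the 65 measured was 2-fold apart between the libraries (background 1.28%), with 44 higher and 21 lower in replicate 2. Their median log2 ratio was 0.04, beside 0.04 for the members and 0.0004 over all genes. The share of all genes that were higher in replicate 2 was not counted. Nothing is therefore read from these numbers or from those of the single lists, and a link to the members was not tested. For transcription of the mitochondrial genome 5 of 11 were higher and 6 lower, with a median of -0.03. This list also holds Twnk, a helicase of mitochondrial DNA replication that the replication list does not count. Tfb1m is counted both here and among the rRNA modification genes. Mrpl12 stood highest at 90.3 TPM, ahead of Tfam, the DNA-packaging transcription factor, at 23.3 and Mterf3 at 18.2, and Tfb1m (4.16), Mterf1a (1.25) and Mterf1b (0.590 TPM) were lowest.

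RNA processing genes had the highest median level of the 5 lists (13.3 TPM), with 14 of 20 higher in replicate 2 and a median of 0.04. Fastk (112 TPM), Hsd17b10 (78.9), a subunit of the enzyme that cuts tRNA 5′ ends, and the RNA-binding Grsf1 (74.9) led it, and Fastkd3 (4.46), Trmt10c (4.11) and Fastkd5 (2.72 TPM) closed it. For replication and upkeep of mitochondrial DNA 10 of 13 were higher, with a median of 0.16. Polg, the DNA polymerase, stood at 21.4 TPM, Rrm2b at 13.2 and Ssbp1 at 12.3, and Exog (0.980), Primpol (0.705) and Dna2 (0.215 TPM) were lowest. Of the rRNA modification and ribosome assembly genes 7 of 10 were higher (median 0.02), from Dhx30 (21.8), Eral1 (10.3) and Nsun4 (10.2) down to Mrm2 (4.00), Ddx28 (3.92) and Trmt61b (0.990 TPM). Of the tRNA modification genes 8 of 12 were higher (median 0.04), from Osgepl1 (21.035), Trmt5 (18.3) and Nsun2 (15.0) down to Qtrt1 (3.49), Nsun3 (2.83) and Trit1 (2.68 TPM).

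Cell type markers were checked because brown fat and muscle are both rich in mitochondria. The 6 cardiomyocyte markers summed to 25136 and 27578 TPM, none was at 0, and their log2 ratios of replicate 2 over replicate 1 ran from 0.04 to 0.13. All 4 genes of the brown fat list were higher in replicate 1, with sums of 84.7 and 21.4 TPM. Ucp1, Adipoq and Plin1 were 2-fold or more apart, and Cidea, at 34.59 and 18.35 TPM, was not. Adipoq and Plin1 are genes of fat cells in general, so the list does not tell brown from white fat by them. All 3 red cell markers were 2-fold or more higher in replicate 1, with sums of 13377 and 6206 TPM. Endothelial (136 and 147), fibroblast (241 and 231) and macrophage markers (26.9 and 26.0 TPM) had no member 2-fold apart, and no marker of any list was at 0. The part of these differences in the replicate ratios of the mitochondrial genes was not tested.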

How the data were processed

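Expected counts, posterior mean counts with their posterior SD, and TPM per gene were deposited by the authors, made per the file notes from transcriptome alignments on mm10 with GENCODE M21. Estimated counts and TPM of the second quantification were deposited by the authors per transcript, made from the reads and an index. Their columns are laid out as RSEM and kallisto write them; which tools were run is not given in the sources. TPM were scaled by the authors over all entries.

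The libraries held 41846508 and 42481559 expected counts, and 41878238 and 42152542 estimated counts. They were not duplicates of each other, as chi-square over degrees of freedom was 29.6 over 12536 genes. Members were joined by gene identifier. Copies were matched to mitochondrial genes with BLAST 2.17.0 on GENCODE M21 transcripts. Replicate ratios used TMM factors from edgeR 4.0.16 (DESeq2 1.42.0 size factors as alternative, R 4.3.3), without spike-ins and numbered tRNA entries, with a prior count of 1 and exact Clopper-Pearson 95% intervals. The second quantification was scaled to its own total. Called were 2-fold at a mean expected count of 50 between libraries, and 4-fold at 5 TPM, with a pseudocount of 1, between quantifications. Both are rules of size, not tests. The first was run on simulated counts with planted 4-fold changes and a spread that was set, not taken from these libraries. That run checks the computation and does not show how the rule performs on changes near 2-fold. Whether the replicates are separate animals is not certain, so their spread may be technical.

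Named are all members, the other copies among the 5 highest in either quantification (ties included), and per machinery list the 3 highest and 3 lowest genes and any 2-fold apart. Beyond these, Twnk is named for its place in the lists, and the genes of the brown fat list are named. Members and lists were chosen with earlier results of these data known. Prorp was not found under that symbol. Some items are not reported here. Alternatives changed the unit, scaling, filter, pseudocount, fold, members, quantification and replicate left out.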

Additional observations from a re-analysis of the deposited data

How the results depend on the processing

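The share of mitochondrial genome genes, 32.4% of expected counts, became 35.4% by TPM, 35.4% with the copies added and 13.6% with the rRNAs left out of both parts, and ran from 32.0% to 32.9% with each library left out. Against library totals, spike-ins and the second quantification in that order, the log2 ratio of replicate 2 over replicate 1 of the summed proteins (0.06 with TMM) was 0.0812, 0.132 and 0.0812 and their median (0.06) 0.0837, 0.134 and 0.0924. For the summed rRNAs (-0.13) it was -0.103, -0.0529 and -0.107, and for their median (-0.10) -0.0808, -0.0304 and -0.0827, with -0.128 and -0.106 under DESeq2 size factors. For the summed copies (0.03) it was 0.0490, 0.0994 and 0.0642 and for their median (0.02) 0.0389, 0.0893 and 0.0643. The sign of each class held. No member was 2-fold apart between libraries under any scaling or filter. Between the quantifications, the log2 TPM ratio of second over first of the summed pair, then of CPM, then of the gene alone, was -0.04, -0.025 and 0.33 for mt-Co1, 0.44, -0.24 and 2.61 for mt-Co2, 0.04, -0.64 and 0.82 for mt-Atp6, 0.28, -0.27 and -0.50 for mt-Co3, and 0.36, 0.033 and 0.20 for mt-Nd4. Over the length of the mitochondrial gene, an alternative chosen after seeing the data, mt-Co1 stood at 0.19 and mt-Nd4 at 0.28. Leaving out a library gave -0.04 to -0.03, 0.43 to 0.44, 0.03 to 0.05, 0.27 to 0.29 and 0.34 to 0.37 in the same order. The cause of these shifts was not tested. No paired analysis was possible because there is 1 group. At this depth the counting interval of the replicate ratio held 0 for mt-Co2 and mt-Atp8 in the first quantification and for mt-Nd4l in the second.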
